A study of Mus musculus with 18 samples.

Results

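The genes described here encode the nuclear subunits of the mitochondrial respiratory chain. They were taken by symbol: 66 genes of the 55401 in the count tables had a symbol of the Nduf a, b, c, s or v series with a number, Sdha to Sdhd, any Uqcr gene, or a Cox4 to Cox8 subunit. The 5 that stayed under 2 CPM (counts scaled to a common library size, here by library totals) in every library were left out, which leaves 61 members. They are 35 subunits of complex I, 4 of complex II, 8 of complex III and 14 of complex IV, counting Ndufa4 with complex IV, where its protein is found. Of the 61, 60 passed the count filter and were tested; Cox6a2 did not pass.

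The respiratory chain sits in the inner mitochondrial membrane and carries electrons to oxygen. Complex I (NADH dehydrogenase) and complex II (succinate dehydrogenase, also an enzyme of the citric acid cycle) pass electrons to ubiquinone, complex III (ubiquinol-cytochrome c reductase) passes them to cytochrome c, and complex IV (cytochrome c oxidase) passes them to oxygen. Complexes I, III and IV pump protons that drive ATP synthase, and each of these 3 complexes also holds subunits encoded in mitochondrial DNA, whereas complex II is encoded wholly in the nucleus.

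RNA sequencing was done on gp38+ stromal cells, the fraction that carries podoplanin and is rich in fibroblasts, isolated by flow sorting out of the salivary glands of wild-type Balb/c mice aged 8 to 12 weeks. There are 18 libraries in 6 groups of 3, each with a subject number of its own in the labels, which do not say whether animals were pooled: uninfected glands (hour 0), and glands taken 3 hours, 1 day, 2 days, 8 days and 23 days after a replication-defective adenovirus (Ad5) was given through the cannulated submandibular duct to induce ectopic lymphoid structures. All infected groups share cannulation and virus, and no group was cannulated without virus. Total counts per library were 4398234 to 15234431.

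Libraries fell into sets that follow the replicate numbers. Hour 0, day 1 and day 2 are replicates 10 to 18, and hour 3, day 8 and day 23 are replicates 1 to 9. Counts on 1458 sensory receptor genes, which stromal cells are not known to use, averaged 0.111 CPM per kb in hour 0 libraries, 0.0604 in day 1 libraries and 0.199 in day 2 libraries. In the other set the averages were 0.00902 (hour 3), 0.00252 (day 8) and 0.0025 (day 23). Set and time cannot be told apart where hour 3, day 8 or day 23 is compared with hour 0, so day 8 and day 23 are also compared with hour 3, within their set. The 7 fibroblast markers were detected in every group, so the labelled cell type was present throughout. Their summed levels ran from 6988 CPM in a day 1 library to 35537 CPM in an hour 3 library. Markers of gland epithelium were also present in every group, and their values stand beside the results below. In sorted bulk RNA, a change in the share of a cell type and a change in RNA per cell cannot be told apart.

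Promoter windows show a sequence that several members share. In the RefSeq windows (250 bases before to 50 after a gene's start; mouse build GRCm38.p6), 49 of the 61 members matched by symbol, with 51 windows. The letters GCGCANGCG, the core of the kind of site that nuclear respiratory factor NRF1 binds, with N for an open base, occurred on either strand in 14 of these 51 windows (27.45%), against 2053 of all 32851 windows (6.249%). The form with that base fixed, GCGCATGCG, which is contained in the first, was in 5 of 51 (9.804%), against 575 of 32851 (1.75%). AAGATGGCG, of the kind bound by YY1, was in 5 of 51 (9.804%), against 461 of 32851 (1.403%). CCGGAAGT, of the kind bound by GABP, was in 4 of 51 (7.843%), against 1277 of 32851 (3.887%). Longer forms were searched first and then shortened at their ends to at most 9 letters, after their counts were known. Of the longer forms, that of NRF1 with the open base was in 12 of 51 windows (23.53%), against 1512 of 32851 (4.603%), that with the base fixed in 3 (5.882%), against 319 (0.9711%), and that of YY1 in 4 (7.843%), against 208 (0.6332%). These are matches of letters and not measured binding. For each complex, the window of the member with the largest called rise at day 8 against hour 0 among those that hold GCGCANGCG is shown 5′ to 3′ on the gene's strand. Capitals mark matches to GCGCANGCG, CCGGAAGT or AAGATGGCG on either strand.
Ndufa6, chr15:82354242-82354541, minus strand: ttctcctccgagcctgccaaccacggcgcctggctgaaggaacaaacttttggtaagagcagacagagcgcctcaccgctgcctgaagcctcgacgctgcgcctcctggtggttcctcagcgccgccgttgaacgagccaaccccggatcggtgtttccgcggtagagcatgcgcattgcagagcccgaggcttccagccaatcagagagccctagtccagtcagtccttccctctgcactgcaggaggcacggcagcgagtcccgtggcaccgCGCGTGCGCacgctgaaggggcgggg
Sdhd, chr9:50603800-50604099, minus strand: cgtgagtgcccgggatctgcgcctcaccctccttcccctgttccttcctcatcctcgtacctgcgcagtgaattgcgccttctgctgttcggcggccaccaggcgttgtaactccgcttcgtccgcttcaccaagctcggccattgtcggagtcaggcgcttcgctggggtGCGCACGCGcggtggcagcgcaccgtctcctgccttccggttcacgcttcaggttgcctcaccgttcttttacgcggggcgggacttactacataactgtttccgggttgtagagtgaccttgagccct
Uqcr11, chr10:80406772-80407071, minus strand: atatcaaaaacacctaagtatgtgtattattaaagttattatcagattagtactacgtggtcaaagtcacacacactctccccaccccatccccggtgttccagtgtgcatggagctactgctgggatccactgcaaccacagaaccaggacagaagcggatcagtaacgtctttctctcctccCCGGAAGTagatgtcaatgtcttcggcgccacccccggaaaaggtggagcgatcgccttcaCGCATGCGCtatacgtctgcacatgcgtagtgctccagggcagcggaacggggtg
Cox6a1, chr5:115348909-115349208, minus strand: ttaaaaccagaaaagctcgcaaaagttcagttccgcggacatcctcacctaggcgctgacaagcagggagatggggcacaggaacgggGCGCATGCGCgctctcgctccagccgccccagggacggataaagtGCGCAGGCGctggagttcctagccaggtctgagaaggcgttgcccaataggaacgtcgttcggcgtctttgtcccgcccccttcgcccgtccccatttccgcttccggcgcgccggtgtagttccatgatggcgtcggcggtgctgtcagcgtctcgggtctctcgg

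With the scaling used here, the members together were lowest at day 2 and highest at day 8. Their summed level, in CPM scaled by TMM (trimmed mean of M values, which sets libraries on a common scale), was 1526 ± 73.2 before infection, 1989 ± 33.3 after 3 hours, 1742 ± 288 after 1 day, 1240 ± 102 after 2 days, 2832 ± 355 after 8 days and 2564 ± 970 after 23 days (mean ± SD, n = 3). The 3 day 8 libraries held 2424 to 3073 CPM, above every library of hours 0 and 3 and of days 1 and 2. Day 23 was the most uneven group, with 1737 CPM in replicate 7, 3631 in replicate 8 and 2324 in replicate 9. As a plain share of all counts the members took 0.182%, 0.105%, 0.222%, 0.19%, 0.255% and 0.221% in the same order of times. On that plain scale hour 3 was lowest and day 2 lay above hour 0, so the low point depends on the scaling, whereas the day 8 mean was highest on both scales. Over the 6 groups, 52 of 60 members changed (edgeR F test, adjusted p under 0.05), beside 83.9% of all 27525 genes tested. The 8 that did not pass were Ndufa5, Ndufa7, Ndufa11, Ndufa12, Ndufb2, Ndufb4, Ndufb6 and Cox6b2.

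**Figure D1:**
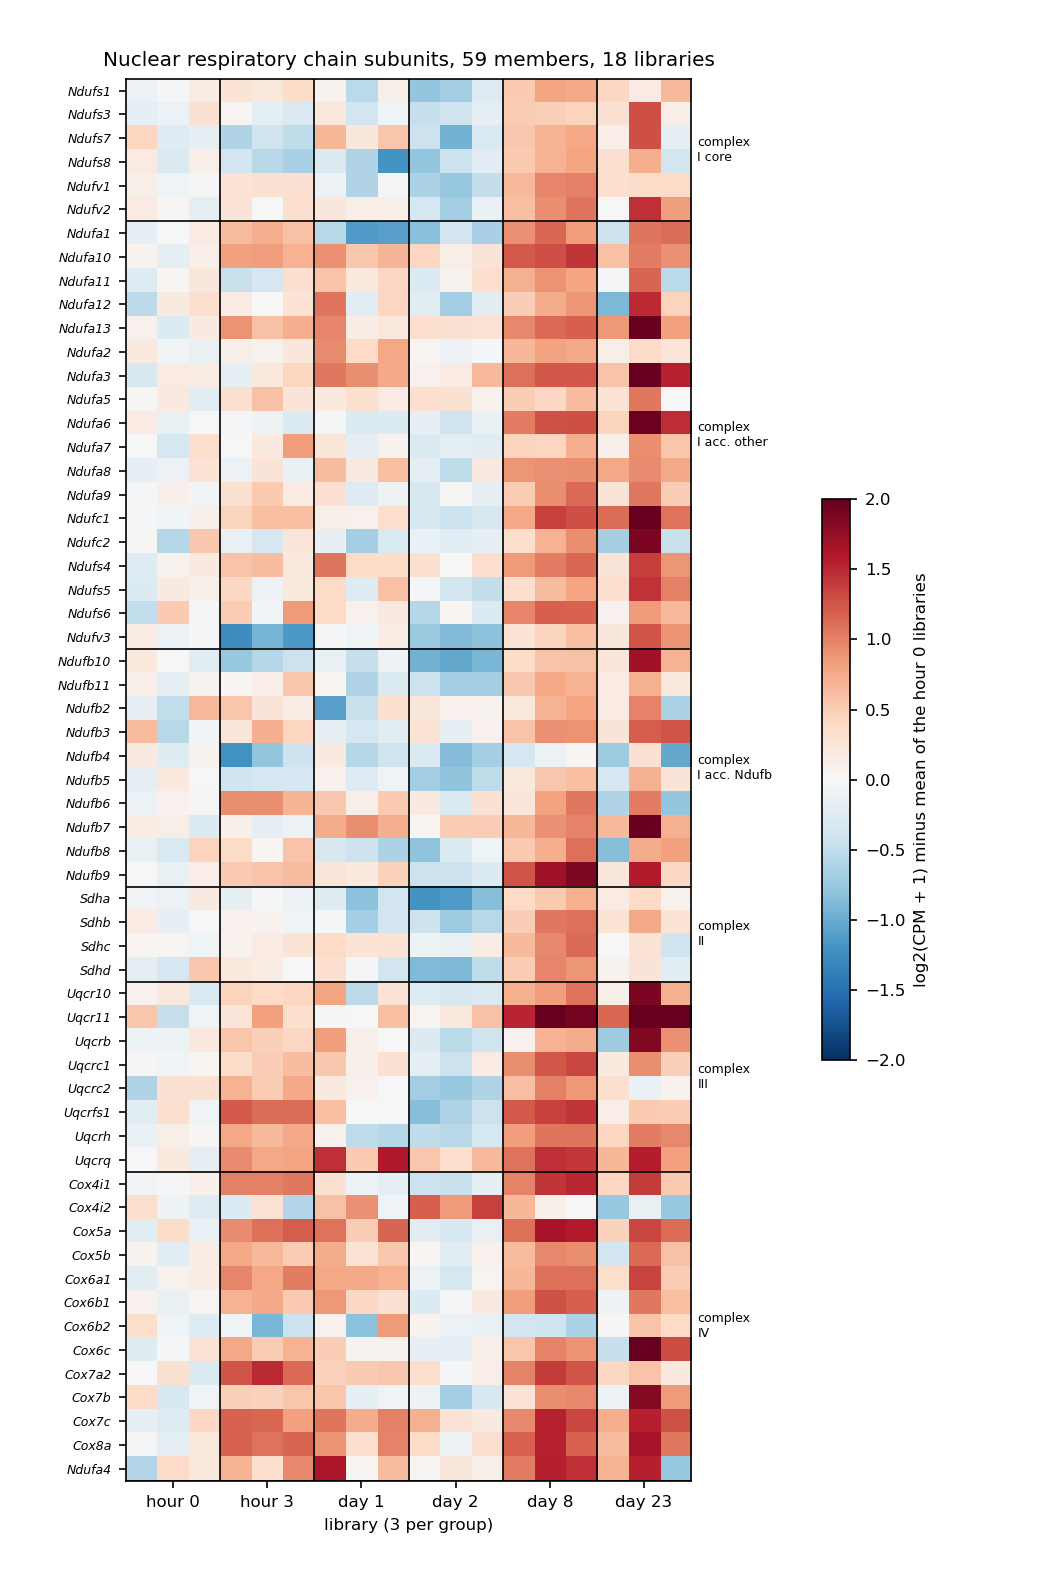
Level of 59 of the 60 tested members (rows, by complex) in 18 libraries (columns, 3 per time), as log2(CPM + 1) minus the mean of the hour 0 libraries; red is higher and blue lower than hour 0. The day 8 columns are red for most members of all 4 complexes, and within day 23 the middle library (replicate 8) stands above the other 2.

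**Figure D2:**
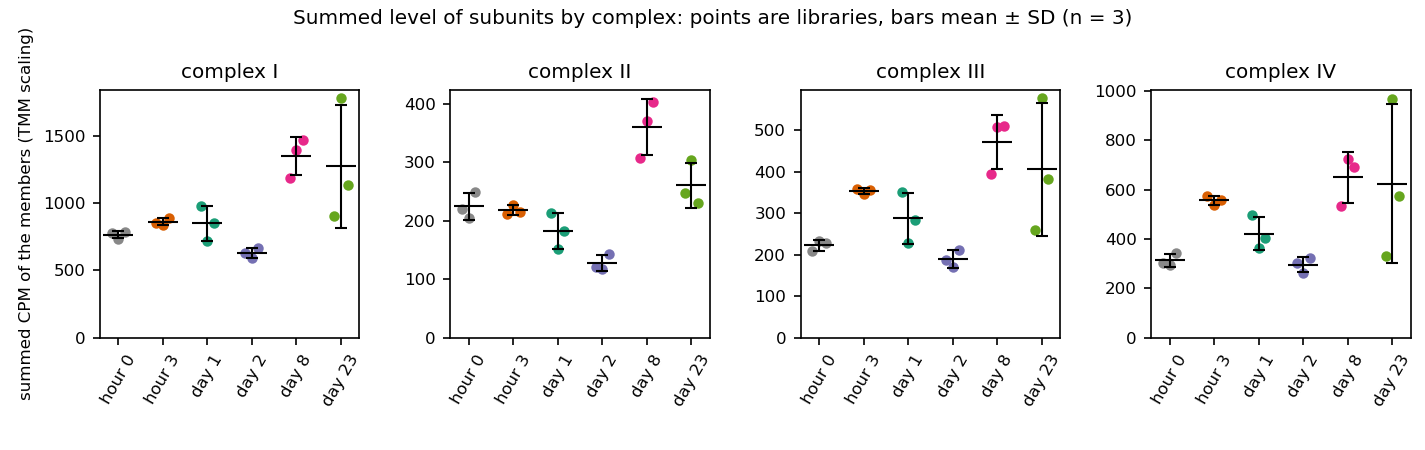
Summed CPM of the members of each complex against time; points are libraries and bars the mean ± SD (n = 3). For complex IV the day 8 mean was 650 CPM beside 556 at hour 3, and for complex II it was 361 beside 218.

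Levels between genes were compared per kb of exon, taking all annotated exons of a gene together. At day 8 the highest mean was that of Cox8a, a small membrane subunit of complex IV, at 103 CPM per kb, followed by Cox4i1 at 83.0 and Uqcrb at 76.7. At hour 0 Uqcrb was first at 52.8 CPM per kb, followed by Cox8a at 40.8. The lowest tested members at day 8 were Cox6b2 at 0.658, Cox4i2 at 1.34 and Ndufb2 at 1.80 CPM per kb. The place of Ndufb2 depends on its annotated exon length of 5628 bases. Its mean of 10.1 CPM at day 8 was above those of Ndufb3 (5.65) and Ndufb4 (7.47).

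With TMM, day 8 against hour 0 gave the most calls among members. Of the 60 members 42 rose and none fell, beside 11.2% of all genes tested that rose and 32.7% that fell. With library totals in place of TMM the count was 24, beside 4.97% of all genes, and without day 8 replicate 2 it was 26, beside 5.3%. Among genes with at least 5 CPM in 3 libraries, 36 of 58 members rose, beside 14.9% of the 14147 genes. The median log2 fold change of the members was 0.89, and that of all genes tested was -0.68. Among genes with at least 5 CPM in 3 libraries, the medians were 0.77 for the members and -0.05 for all genes. By complex, 21 of 35 subunits of complex I, 4 of 4 of complex II, 7 of 8 of complex III and 10 of 13 of complex IV rose. Of the 42, 23 stayed called in the same direction under every other setting tried, among them Sdhb, Sdhc, Uqcr11, Uqcrfs1, Cox4i1, Cox5a and Ndufb9.

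The complex I calls at day 8 covered catalytic and accessory subunits. Of the 7 core subunits, which hold the flavin and the iron-sulfur clusters, 5 rose against hour 0. Ndufv1, which binds the flavin and NADH, had 68.9, 86.9 and 88.4 CPM in day 8 libraries, against 47.7, 41.0 and 42.6 CPM in hour 0 libraries. The groups did not overlap, and the log2 fold change was 0.90 (SE 0.175, edgeR adjusted p = 0.000413). Of the accessory subunits, 12 of 18 outside the Ndufb series and 4 of 10 in it rose. Ndufb9, a member of the membrane arm (chromosome 15, 58933756 to 58939488), had 54.8, 74.0 and 83.6 CPM in day 8 libraries, against 22.4, 20.1 and 24.4 CPM in hour 0 libraries. All 3 day 8 libraries lay well above the hour 0 libraries, with a log2 fold change of 1.67 (SE 0.252, adjusted p = 1.99e-05).

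Uqcr11, a small subunit of complex III (chromosome 10, 80402997 to 80406830) whose promoter window is printed above, rose the most of all members at days 8 and 23 against hour 0. It had 15.1, 6.91 and 9.27 CPM before infection, 11.9, 18.3 and 12.6 after 3 hours, 9.67, 9.84 and 15.5 after 1 day, 10.4, 11.7 and 15.4 after 2 days, 30.4, 46.5 and 40.0 after 8 days, and 23.4, 75 and 43.1 after 23 days. Every library of days 8 and 23 lay above every library of the other times. The log2 fold change was 1.90 for day 8 against hour 0 (SE 0.329, edgeR adjusted p = 0.000107) and 2.19 for day 23 against hour 0 (SE 0.333, adjusted p = 5.35e-05). Within the set it was 1.45 for day 8 against hour 3 (SE 0.326, adjusted p = 0.000721) and 1.74 for day 23 against hour 3 (SE 0.329, adjusted p = 0.000102). The call held under every other setting tried in all 4 comparisons.

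**Figure D3:**
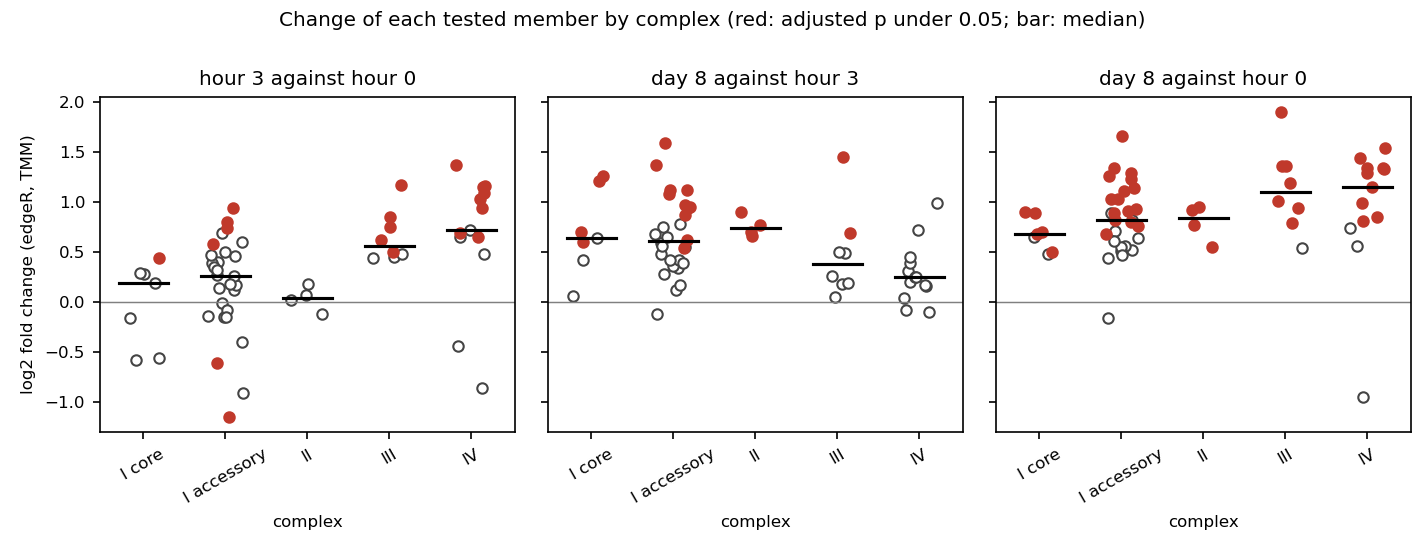
Log2 fold change of each tested member by complex in 3 comparisons; filled red points passed an adjusted p of 0.05 and black bars are medians. With TMM, complex IV has 8 calls of 13 at hour 3 against hour 0 and none of 13 at day 8 against hour 3. Complex II has none of 4 and then 4 of 4. Both comparisons use the same hour 3 libraries, so their counts are not independent. With library totals, 0 of 60 members rose in the first, beside 5.41% of all genes, and 56 in the second, beside 29.8%.

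Within the set, 21 of 60 members rose at day 8 against hour 3 and none fell, beside 16.5% of all genes tested that rose and 14.1% that fell. The median was 0.55, with 0 for all genes tested. The calls were 15 of 35 for complex I, 4 of 4 for complex II, 2 of 8 for complex III (Uqcrc1 and Uqcr11) and 0 of 13 for complex IV. The same 21 members were called with DESeq2 size factors. With library totals, which shift the log2 fold change of single genes by a median of 0.76, 56 of 60 rose, beside 29.8% of all genes. The difference between complexes was not tested. Ndufv3, an accessory subunit of the NADH-oxidising part of the complex, rose the most, with 58.0, 65.1 and 72.6 CPM in day 8 libraries, against 19.3, 24.5 and 21.1 CPM in hour 3 libraries. The log2 fold change was 1.59 (SE 0.208, edgeR adjusted p = 3.69e-07), and the groups were far apart. Ndufs7 and Ndufs8, core subunits that carry iron-sulfur clusters, rose by log2 fold changes of 1.21 and 1.26. Ndufa6, whose promoter window is printed above, rose by 1.37.

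The 4 subunits of succinate dehydrogenase moved together at day 8. Sdha (chromosome 13, 74322254 to 74350280), the flavin-bearing subunit that oxidises succinate, had 138, 132 and 164 CPM before infection, 126, 142 and 132 after 3 hours, 121, 81.5 and 110 after 1 day, 62.2, 65.0 and 79.1 after 2 days, 191, 208 and 236 after 8 days, and 161, 190 and 153 after 23 days. The day 8 libraries were the highest 3 of the 18 and the day 2 libraries the lowest 3. Its log2 fold change was 0.67 for day 8 against hour 3 (SE 0.169, edgeR adjusted p = 0.0024) and 0.55 for day 8 against hour 0 (SE 0.168, adjusted p = 0.0121). The second value lost its call with library totals, without the day 2 libraries, and without any of replicates 2, 3 or 11.

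Sdhb, the iron-sulfur subunit (chromosome 4, 140961203 to 140979193), had 50.4, 75.1 and 77.6 CPM at day 8, against 38.1, 37.3 and 33.6 CPM at hour 3 and 40.2, 31.7 and 35.5 CPM at hour 0. The log2 fold change was 0.90 against hour 3 (SE 0.208, edgeR adjusted p = 0.000985) and 0.92 against hour 0 (SE 0.207, adjusted p = 0.00149). In the other groups it had 35, 21.9 and 27.0 CPM at day 1, 26.4, 21.1 and 23.9 at day 2, and 43.2, 61.2 and 43.1 at day 23. All 3 day 8 libraries lay above every library of hours 0 and 3 and of days 1 and 2.

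Sdhc and Sdhd form the membrane anchor that holds ubiquinone. Sdhc (chromosome 1, 171127165 to 171150603) had 25.7, 25.8 and 23.3 CPM before infection, 26.2, 28.2 and 30.5 after 3 hours, 33.2, 30.4 and 30.6 after 1 day, 23.1, 22.5 and 27.7 after 2 days, 39.8, 49.6 and 55.7 after 8 days, and 24.8, 30.4 and 18.7 after 23 days. The day 8 libraries stood above all other libraries. It rose at day 8 against hour 3 by 0.77 (SE 0.197, edgeR adjusted p = 0.00246) and against hour 0 by 0.96 (SE 0.196, adjusted p = 0.000661), and fell by 0.96 at day 23 against day 8 (SE 0.199, adjusted p = 0.00358).

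Sdhd (chromosome 9, 50596357 to 50603812) had 26.6, 37.5 and 34.9 CPM at day 8, against 21.6, 20.7 and 18.5 CPM at hour 3 and 16.0, 14.4 and 27.4 CPM at hour 0. Day 8 and hour 0 overlapped through hour 0 replicate 12, whereas day 8 and hour 3 did not overlap. The log2 fold change was 0.70 against hour 3 (SE 0.253, edgeR adjusted p = 0.0339) and 0.77 against hour 0 (SE 0.252, adjusted p = 0.0168). The call against hour 3 was lost without any of replicates 2 to 6, and that against hour 0 with library totals, without the day 2 libraries, and without any of replicates 2, 3, 10 or 11. Its other libraries had 23.4, 18.2 and 14.1 CPM at day 1, 9.61, 9.42 and 12.7 at day 2, and 19.4, 22.2 and 15.6 at day 23.

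**Figure D4:**
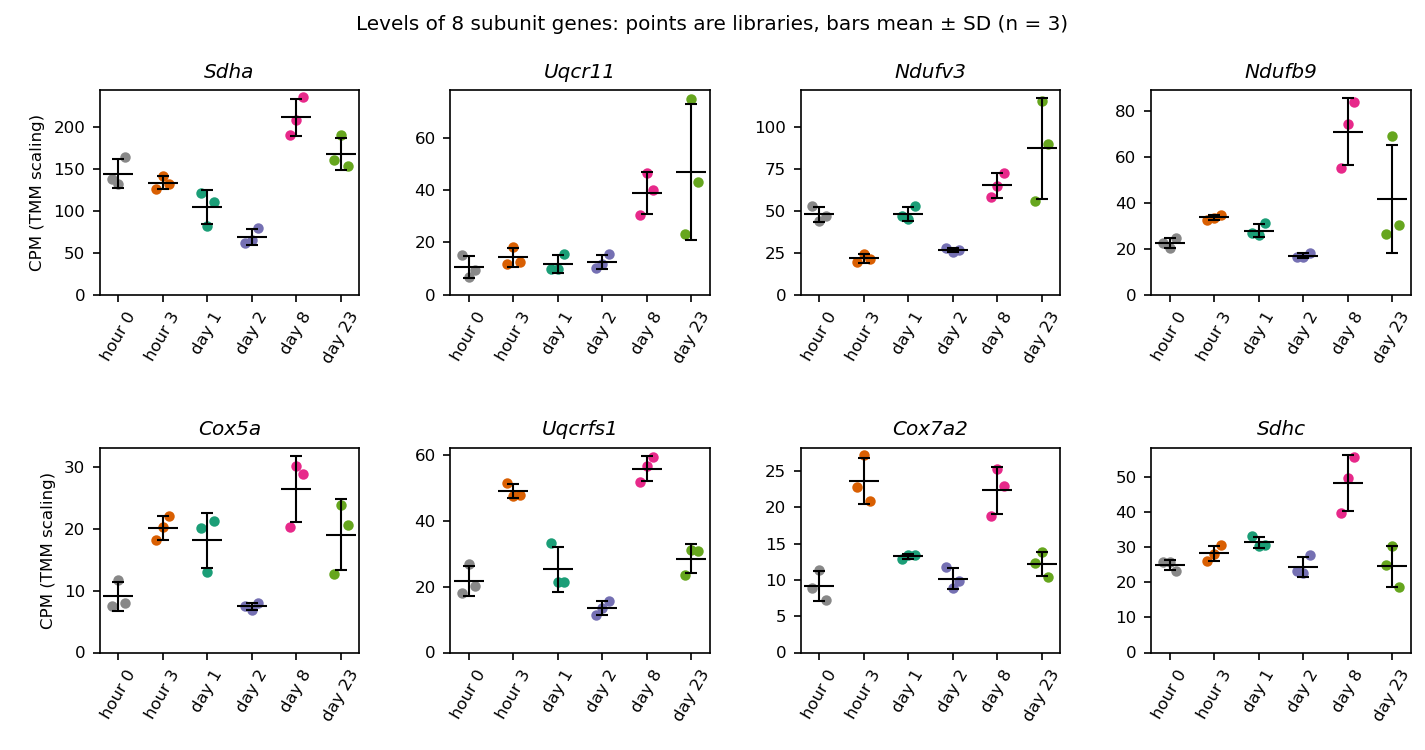
CPM (TMM scaling) of 8 subunit genes against time; points are libraries and bars the mean ± SD (n = 3). Sdha and Sdhc are highest at day 8, Ndufv3 is low at hour 3 and day 2, and Uqcrfs1 and Cox7a2 are high at hour 3 and day 8 and lower at day 23.

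At hour 3 the calls against hour 0 depended on the scaling. With TMM 18 of 60 members rose and 2 fell, beside 16.9% of all genes tested that rose and 43.1% that fell; with library totals 0 rose and 41 fell, beside 5.41% and 70.8%. Library totals shift the log2 fold change of single genes by a median of -1.15. The members' median was 0.40 with TMM and -0.77 with library totals, against -1.41 and -2.54 for all genes tested. The distance depends on genes of low level. Among genes with at least 5 CPM in 3 libraries, the medians with TMM were 0.29 for the members and -0.23 for all 14147 genes. The rises with TMM were 8 of 13 in complex IV, 5 of 8 in complex III, 5 of 35 in complex I and 0 of 4 in complex II. The count of rises was 10 without hour 3 replicate 4, beside 13.0% of all genes, and 10 without the day 2 libraries, beside 19.7%.

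Cox7a2, the widely expressed form of complex IV subunit 7a, had 22.8, 27.2 and 20.8 CPM in hour 3 libraries, against 8.90, 11.3 and 7.20 CPM in hour 0 libraries. The groups did not overlap, and the log2 fold change was 1.37 (SE 0.243, edgeR adjusted p = 3.59e-05), but 0.19 with library totals (adjusted p = 0.49). Uqcrfs1, the Rieske iron-sulfur protein of complex III, had 51.6, 47.7 and 47.9 CPM in hour 3 libraries, against 18.2, 27.1 and 20.1 CPM in hour 0 libraries. Its log2 fold change was 1.17 with TMM (SE 0.21, adjusted p = 4.24e-05) and -0.00899 with library totals.

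Ndufv3 went the other way, with 19.3, 24.5 and 21.1 CPM in hour 3 libraries, against 52.9, 44.1 and 46.7 CPM in hour 0 libraries. Its log2 fold change was -1.15 (SE 0.207, edgeR adjusted p = 4.56e-05), and it was the one call of this comparison that held under every setting. Ndufb10, an accessory subunit of the membrane arm, had 25.2, 28.7 and 31.8 CPM in hour 3 libraries, against 50.4, 43.7 and 36.9 CPM in hour 0 libraries, with a log2 fold change of -0.61 (SE 0.242, adjusted p = 0.0324). That call was lost with no filter, with limma-voom, and without any of replicates 4, 5, 10 or 11. Ndufv3 and Ndufb10 both rose at day 8 against hour 3, Ndufb10 by 1.13 (SE 0.242, adjusted p = 0.000452), with 56.3, 64.9 and 65.9 CPM in day 8 libraries.

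Days 1 and 2 can be set against hour 0 within a set. At day 1, 10 of 60 members rose and 2 fell, beside 9.67% of all genes tested that rose and 12.8% that fell. The members' rises lie not far above the background, and the difference was not tested. The median was 0.22, with -0.41 for all genes. Among genes with at least 5 CPM in 3 libraries, the medians were 0.24 for the members and -0.04 for all genes. The 10 that rose were 4 subunits of complex IV (Cox5a, Cox6a1, Cox7c and Cox8a), 1 of complex III (Uqcrq) and 5 of complex I, and Ndufa1 and Sdha fell. With library totals 12 rose and 1 fell, beside 10.9% and 11.1% of all genes. Without day 1 replicate 13 the count of rises was 6, beside 6.8%. Uqcrq, a small subunit of complex III, had 72.5, 37.4 and 80.1 CPM at day 1, against 25.7, 29.8 and 22.4 CPM at hour 0. The log2 fold change was 1.29 (SE 0.24, edgeR adjusted p = 0.000133), and replicate 14 was well below the other 2 day 1 libraries.

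Cox5a, which with Cox5b forms the matrix-side part of complex IV, had 20.1, 13.0 and 21.3 CPM at day 1, against 7.45, 11.8 and 8.02 CPM at hour 0, a log2 fold change of 1.00 (SE 0.268, edgeR adjusted p = 0.00622). At day 2 it had 7.51, 6.92 and 7.93 CPM, below every day 1 library, and it fell by 1.28 against day 1 (SE 0.274, adjusted p = 0.00135). At hour 3, day 8 and day 23 it had 18.1, 20.3 and 22, then 20.3, 30.2 and 28.8, then 12.7, 23.9 and 20.6 CPM.

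Day 2 had the lowest member sums with TMM. Against hour 0 none of the 60 members rose and 8 fell, beside 5.12% of all genes that rose and 9.63% that fell, so 8 of 60 lies near the background. The falls were Sdha, Sdhd, Uqcrc2, Uqcrfs1, Ndufv1, Ndufv3, Ndufb10 and Ndufb11. With library totals 5 rose and 1 fell, beside 9.29% and 4.64% of all genes. DESeq2 called 2 higher and 4 lower, beside 8.32% and 7.59%. Sdha held under every setting, with a log2 fold change of -1.07 (SE 0.171, edgeR adjusted p = 2.41e-05). Ndufb10 had 21.9, 20.9 and 22.5 CPM at day 2, against 50.4, 43.7 and 36.9 CPM at hour 0, a log2 fold change of -1.0 (SE 0.245, adjusted p = 0.00382), a call lost with library totals.

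Against day 1, 13 of 60 members fell at day 2 and none rose, beside 11.2% of all genes that fell and 12.0% that rose. The number rests on the genes and libraries fitted: it was 33 when only the 9 libraries of the set were fitted, beside 17.8% of all genes in that fit, 36 with no filter, beside 10.2%, and 24 without day 1 replicate 14, beside 10.6%. It was 7 without day 1 replicate 13 (beside 6.81%) or day 2 replicate 16 (beside 7.11%), 6 without day 2 replicate 17 (beside 6.26%), and 5 with library totals, beside 4.61% of all genes. Ndufs7 had 20.7, 14.2 and 22.5 CPM at day 2, against 44.9, 33.0 and 41.9 CPM at day 1. The log2 fold change was -1.06 (SE 0.279, edgeR adjusted p = 0.0075), a call lost without day 2 replicate 17. Cox5a, Cox6a1, Ndufv3 and Uqcrfs1 kept their fall under every setting tried.

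By day 23, 28 of 60 members were higher than at hour 0 and none was lower, beside 8.51% of all genes tested that rose and 25.4% that fell. The count was 14 without day 23 replicate 8, beside 4.24% of all genes, 37 without replicate 7, beside 7.62%, and 10 when the 2 groups were fitted alone, beside 3.26%. With library totals it was also 10, beside 2.55% of all genes. Complex II had 0 of 4 calls, complex I 15 of 35, complex III 6 of 8 and complex IV 7 of 13. Ndufc1, a small accessory subunit of complex I, had 17.8, 49.7 and 17.5 CPM at day 23, against 7.45, 7.36 and 8.36 CPM at hour 0. Its log2 fold change was 1.90 (SE 0.316, edgeR adjusted p = 0.000153), with replicate 8 far above the other day 23 libraries.

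Set against hour 3, day 23 had 14 of 60 members higher and 3 lower, beside 15.7% of all genes tested that rose and 14.3% that fell. The share of rises lies not far above the background and that of falls below it, and neither difference was tested. Of the 14, 13 belong to complex I, the other being Uqcr11, and the 3 lower were Cox7a2, Uqcrc2 and Uqcrfs1. The count of rises was 7 without replicate 8, beside 12.3% of all genes, and 22 without replicate 7, beside 13.6%. Library totals called 49 higher and 0 lower, beside 28.8% and 7.18%. Ndufv3 had 56.0, 116 and 90.2 CPM at day 23, against 19.3, 24.5 and 21.1 CPM at hour 3, a log2 fold change of 2.02 (SE 0.21, edgeR adjusted p = 7.01e-09). Cox7a2 had 12.3, 13.8 and 10.4 CPM at day 23, against 22.8, 27.2 and 20.8 CPM at hour 3, a log2 fold change of -0.94 (SE 0.243, adjusted p = 0.00298), a call lost with library totals.

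Between day 23 and day 8, 4 of 60 members fell (Sdhc, Uqcrc2, Cox7a2 and Uqcrfs1) and none rose, beside 3.08% of all genes tested that fell and 2.25% that rose. The share of falls lies above the background but rests on only 4 genes, and the difference was not tested. The count of falls was 10 without day 23 replicate 8, beside 3.24% of all genes, and 2 without day 8 replicate 2 (beside 1.27%), day 8 replicate 3 (beside 1.63%) or day 23 replicate 9 (beside 1.94%). DESeq2 called 9 lower, beside 4.34%, and library totals 7, beside 3.44%. Without day 23 replicate 7, 4 members rose, beside 2.28%. Uqcrfs1 had 23.5, 31.1 and 31.0 CPM at day 23, against 51.8, 56.7 and 59.4 CPM at day 8, a log2 fold change of -0.97 (SE 0.21, edgeR adjusted p = 0.00519). It had 33.2, 21.4 and 21.3 CPM at day 1 and 11.4, 13.6 and 15.6 at day 2, the lowest of the 18 libraries.

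Several complex IV subunits exist as a widely expressed form and a form restricted to certain tissues. The widely expressed form led in every pair. Cox4i1 had 48.6, 49.2 and 54.5 CPM before infection, 103, 103 and 106 after 3 hours, 62.7, 46.7 and 44.3 after 1 day, 37.4, 37.1 and 44.9 after 2 days, 102, 138 and 146 after 8 days, and 68.1, 135 and 73.2 after 23 days. Cox4i2, the form known from lung and from oxygen-sensing cells, had 1.16, 0.566 and 0.414 CPM before infection, 0.391, 1.05 and 0.129 after 3 hours, 1.53, 2.18 and 0.598 after 1 day, 2.85, 2.03 and 3.34 after 2 days, 1.67, 0.812 and 0.698 after 8 days, and 0, 0.524 and 0 after 23 days. Its share of the pair's counts was 6.40% ± 1.06 at day 2, against 1.41% ± 0.825 at hour 0 (SD, n = 3), and the groups did not overlap. A two-sided exact permutation test gave p = 0.1, and 3 libraries against 3 can give no smaller one, so it could not pass 0.05. Adjusted over the 45 isoform share tests it was 0.321. As a gene, Cox4i2 did not pass at day 2 against hour 0 (log2 fold change 1.93, edgeR adjusted p = 0.196), and its day 2 value rests on 68 counts in all.

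Cox6b1 had 16.6, 14.0 and 16.4 CPM before infection, 26.1, 27.3 and 23.0 after 3 hours, 29.2, 21.2 and 19.5 after 1 day, 12.8, 15.4 and 17.8 after 2 days, 28.8, 39.0 and 37.0 after 8 days, and 14.4, 33.5 and 24.4 after 23 days. Cox6b2, known from testis, had 2.03, 1.25 and 0.993 CPM before infection, 1.30, 0.264 and 0.772 after 3 hours, 1.53, 0.348 and 3.29 after 1 day, 1.5, 1.19 and 1.15 after 2 days, 0.834, 0.812 and 0.543 after 8 days, and 1.43, 2.53 and 2.13 after 23 days. Its share of the pair was 2.10% ± 0.689 at day 8, against 8.25% ± 2.58 at hour 0 (SD, n = 3; exact permutation p = 0.1), without overlap. Within the set it was 2.10% at day 8, against 2.99% ± 1.92 at hour 3 (exact permutation p = 0.6), and day 23 had 8.02% ± 0.984. At day 8 against hour 0, Cox6b1 itself rose by 1.15 on the log2 scale (SE 0.248, edgeR adjusted p = 0.001).

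Cox6a1 had 21.4, 26.6 and 27.8 CPM before infection, 50.3, 43.6 and 52.1 after 3 hours, 43.8, 42.9 and 41.3 after 1 day, 23.1, 19.4 and 26.1 after 2 days, 40.3, 55.0 and 54.9 after 8 days, and 32.5, 65.4 and 36.0 after 23 days. Cox6a2, the form of heart and skeletal muscle, was at 0 in 12 of 18 libraries, and its highest values were 0.3, 0.596 and 1.46 CPM at day 2. It shares exon sequence with Itgad, which had more counts, so its few counts may not be its own. Cox8a had 24.4, 22.1 and 29.4 CPM before infection, 58.3, 54.7 and 57.3 after 3 hours, 47.7, 31.9 and 50.8 after 1 day, 32.9, 23.4 and 31.6 after 2 days, 58.0, 75.2 and 58.0 after 8 days, and 39.2, 80.4 and 53.5 after 23 days.

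The muscle forms Cox7a1 and Cox8b fell under the 2 CPM limit, as did Cox7b2, Cox8c and Cox6c2, a processed pseudogene. Cox7a1 was just outside it, with 1.99 CPM by library totals in its highest library, and Cox6a2 just inside, with 2.22, followed by Cox6b2 with 4.14. On the TMM scale Cox7a1 had 1.08, 2.19 and 2.25 CPM at day 8, against 0.261, 0.132 and 1.03 CPM at hour 3 and 1.64, 0 and 0 CPM at hour 0. Cox8b had at most 1.30 CPM in any library on that scale, at day 8.

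Other genes of the pathway were counted from lists. Of 16 ATP synthase subunits, which make ATP from the proton gradient, 14 rose and none fell at day 8 against hour 0, with a median log2 fold change of 1.02, and 7 rose at day 8 against hour 3. All genes tested rose at 11.2% and 16.5% in these comparisons. Of 13 citric acid cycle enzymes, 12 rose at day 8 against hour 0 and 8 fell at day 2 against day 1, where 11.2% of all genes fell. With library totals these 4 counts were 7, 16, 4 and 2, in the same directions. The shares of all genes beside them were 4.97%, 29.8%, 4.97% and 4.61%. The 10 tested subunits encoded in mitochondrial DNA followed another course. At day 1 against hour 0 none rose and 6 fell, beside 12.8% of all genes that fell, with a median of -1.45, while the nuclear members had a median of 0.22. With library totals, 6 of the 10 fell as well, beside 11.1% of all genes. At day 8 against hour 3 none of the 10 was called in either direction, with a median of -0.01. With library totals 6 rose in that comparison, beside 29.8% of all genes. At day 8 against hour 0, 7 of the 10 rose with TMM, beside 11.2% of all genes, and 2 with library totals, beside 4.97%.

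Assembly factors help build the complexes and are not part of them. Of 47 tested, 4 rose and 16 fell at hour 3 against hour 0, beside 16.9% and 43.1% of all genes. At day 8 against hour 3, 19 rose and 3 fell, beside 16.5% and 14.1%. With library totals these were 1 and 40, beside 5.41% and 70.8%, then 35 and 2, beside 29.8% and 6.59%. Uqcc3, a factor of complex III, averaged 13.7 CPM at day 8, against 1.91 CPM at hour 3, a log2 fold change of 2.84 (SE 0.442, edgeR adjusted p = 6.47e-06). Of 77 mitochondrial ribosomal proteins, 23 rose and none fell at day 1 against hour 0, beside 9.67% and 12.8% of all genes, and 28 rose with library totals, beside 10.9%. Calls for the 82 cytosolic ribosomal proteins turned on the scaling. At hour 3 against hour 0, 79 rose and 1 fell with TMM, against 8 and 4 with library totals, and at day 8 against hour 3 none rose and 25 fell with TMM, against 21 and 1 with library totals. The shares of all genes for these comparisons are those given for the assembly factors.

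Regulators of mitochondrial genes did not move as a block: of 16 tested, 4 rose and 7 fell at day 8 against hour 3 with TMM, and 7 rose and 4 fell with library totals, beside the same shares as for day 8 against hour 3 above. Ppargc1a, the coactivator PGC-1alpha, averaged 62.7 CPM at day 8, against 3.31 CPM at hour 3 and 15.7 CPM at hour 0. Its log2 fold change was 4.24 against hour 3 (SE 0.363, edgeR adjusted p = 1.47e-10) and 1.99 against hour 0 (SE 0.313, adjusted p = 3.14e-05). Myc, a broad activator of growth genes, averaged 51.3 CPM at day 8, against 763 CPM at hour 3 (log2 fold change -3.90, SE 0.242, adjusted p = 2.04e-13). Of 6 subunits and carriers outside the symbol rule, Cycs, the cytochrome c gene, averaged 72.9 CPM at hour 3, against 16.7 CPM at hour 0 (log2 fold change 2.13, SE 0.252, adjusted p = 6e-08).

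**Figure D5:**
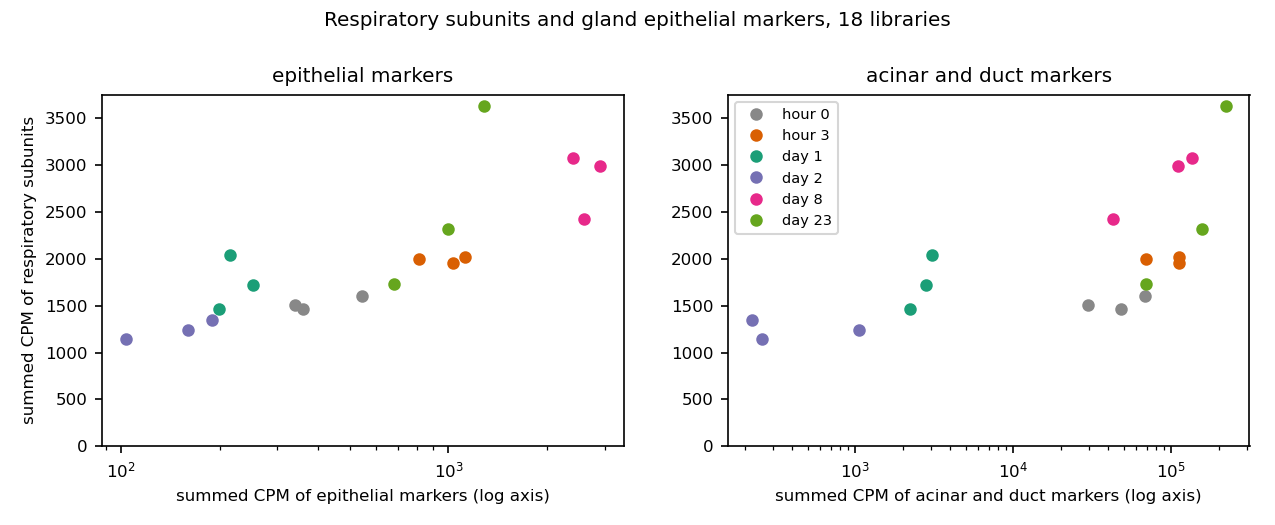
Summed CPM of the respiratory subunits in each of 18 libraries against the summed CPM of 6 epithelial markers (left) and 7 acinar and duct markers (right), both on log axes. The acinar and duct sum is almost all Mucl2. Day 2 libraries lie lowest on all 3 measures, and day 8 libraries hold the most epithelial marker RNA, 2407 to 2904 CPM.

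Markers of gland epithelium varied widely over the times, in part with the members. The 6 epithelial markers summed to 341 to 545 CPM before infection, 810 to 1127 after 3 hours, 199 to 253 after 1 day, 103 to 190 after 2 days, 2407 to 2904 after 8 days and 681 to 1282 after 23 days. The 7 acinar and duct markers summed to 29793 to 67870, 68657 to 111889, 2230 to 3042, 221 to 1051, 43048 to 135384 and 69525 to 221221 CPM in the same order. That sum was almost all Mucl2, with 29182 of 29793 CPM in hour 0 replicate 10 and 131857 of 135384 CPM in day 8 replicate 3. The other markers of the list add little to it, and they did not all follow Mucl2. No marker of either list was at 0 in any group. At day 8 against hour 3, 5 of the 6 epithelial markers rose and none fell. Of the 7 acinar and duct markers, 3 rose and 1 fell. Of all genes, 16.5% rose and 14.1% fell in that comparison. Within day 23 the replicate with the lowest member sum, replicate 7, also had the lowest sums of both marker lists, and replicate 8 had the highest of all 3. No other group showed that order on both lists, but several did in part. Within day 8 the acinar and duct sums ranked as the member sums, whereas replicate 3 had the highest member sum and the lowest epithelial sum. Within day 1, replicate 14 was lowest on all 3, and the acinar and duct sums ranked as the member sums. Within day 2 only the epithelial sums ranked as the member sums. Within hour 0, replicate 12 was highest on all 3. Within hour 3, replicate 5 had the lowest member sum and the highest acinar and duct sum. At day 1 the epithelial sums and the acinar and duct sums lay below every hour 0 library, whereas the members' sums of 1463 to 2039 CPM spanned the 1466 to 1608 CPM of hour 0.

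Macrophage, endothelial and lymphocyte markers had their highest sums at day 8. The 7 macrophage markers summed to 91.7 to 110 CPM at day 8, against 14.2 to 21.2 CPM at hour 3 and 18.3 to 28.9 CPM at hour 0. The 5 endothelial markers summed to 107 to 136 CPM at day 8, against 17.5 to 39.1 CPM at hour 3 and 54.1 to 60.1 CPM at hour 0, and the 5 lymphocyte markers to 45.1 to 68.5 CPM at day 8, against 4.30 to 12.5 CPM at hour 3 and 10.8 to 20.7 CPM at hour 0. Most of the lymphocyte sum at day 8 was Ptprc, with 55.7, 39.0 and 35.8 CPM. Of the 5 lymphocyte markers, 2 rose and 1 fell at day 8 against hour 0, beside 11.2% and 32.7% of all genes. Ms4a1 had 0, 0 and 0.62 CPM at day 8, against 3.77, 6.57 and 1.90 CPM at hour 0, a comparison that crosses the sets. At hour 3 the lymphocyte markers Cd3e and Ms4a1 were at 0. The 7 fibroblast markers summed to 14538 to 17182 CPM at day 8, against 33045 to 35537 CPM at hour 3 and 16133 to 19093 CPM at hour 0. Their sums were 6988 to 8966 CPM at day 1 and 8826 to 12866 CPM at day 2. Against hour 0, 1 rose and 6 fell at day 1, beside 9.67% and 12.8% of all genes. At day 2, 1 rose and 5 fell, beside 5.12% and 9.63%. Mural markers (8) and neutrophil markers (6) had their highest sums at hour 3. These were 1395 to 1529 and 1.14 to 2.42 CPM at day 8, against 3045 to 3389 and 35.6 to 47.4 CPM at hour 3. The mural sum at hour 3 rested largely on Cspg4, with 1926, 1632 and 1639 CPM in hour 3 libraries. Mural sums were 371 to 665 CPM at day 1 and 464 to 649 CPM at day 2, against 1460 to 2005 CPM at hour 0. Of the 8 mural markers, 5 rose and 3 fell at day 8 against hour 3, beside 16.5% and 14.1% of all genes. Skeletal muscle (10), adipocyte (6) and germ cell (4) markers had their highest medians at day 2, at 151, 11.7 and 5.11 CPM. The germ cell sums were 4.29 to 5.71 CPM at day 2, 1.64 to 5.10 at hour 0 and 0.644 to 1.48 at day 1. In the other set they were at most 0.167 CPM. Counts on sensory receptor genes, given above, differ between the sets in the same direction and are also highest at day 2. Whether these marker counts come from such cells was not tested. The part of any marked cell type in the members' changes was not tested.

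Some members share reads with other genes, and whether the counting used strand is not given in the sources used here. A near-identical copy (at least 95% identity over 200 bases or more) exists for 12 members, and for Ndufa12, Ndufb3 and Ndufb4 the copies held over 10% as many counts as the gene. The exons of 21 members overlap those of another gene, and for 14 that gene held over 10% as many counts. Among the 14 are Ndufs1 with Eef1b2, Ndufb2 with Braf, Ndufa3 with Tfpt, Cox6c with Vps13b and Cox4i1 with Emc8, so their values are uncertain. The 4 Sdh genes, Uqcr11, Uqcrfs1, Ndufv3, Ndufb10 and Cox7a2 have no such overlap or copy.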

How the data were processed

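RNA was sequenced from gp38+ stromal cells in 18 libraries, 3 in each of 6 groups. The tools named in the submitters' processing notes are FastQC, STAR, Subread and DESeq2, with mm10 as the genome build; roles, versions and the strand setting are not given in the sources used here. What the authors deposited is 1 table of unnormalised read counts per library, by Ensembl identifier. Of 55401 identifiers, 55141 matched GENCODE M21; the other 260 held 0.0241% of counts.

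Counts were fitted in 1 model of the 6 groups with edgeR 4.0.16 in R 4.3.3 (quasi-likelihood test, TMM scaling, filterByExpr at min.count 10 and min.total.count 15). P-values were adjusted by Benjamini-Hochberg over the 27525 genes tested in each comparison. Genes with an adjusted p under 0.05 are said to have risen or fallen, and named p-values in the text are these. Reported levels are CPM on the TMM scale. The model was tested on simulated data. Settings tried in turn were DESeq2 size factors, library totals, no filter, 5 CPM in 3 libraries, DESeq2 1.42.0, limma-voom (limma 3.58.1), the 2 groups alone, the 9 libraries of 1 set, leaving out each library and, chosen after seeing the data, leaving out day 2. Shares of isoform pairs were compared by exact permutation, two-sided, in scipy 1.17.1. Copies were sought with BLAST 2.17.0 among GENCODE transcripts.

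Values in every library are given for the Sdh genes and isoform pairs, except that Cox6a2, Cox7a1, Cox7a2 and Cox8b are given in part. They are also given, in each comparison, for the called members with non-overlapping libraries and at least 10 CPM on average in the higher group, up to 2 that rose and 2 that fell, taken by size of change. The values of 1 member are not reported here by name, though it stays in the counts and sums. Ndufv1 was added after its values were seen. In other lists up to 4 genes with the largest called changes could be named. Promoter motifs were searched in forms of up to 11 letters, then shortened after those counts were seen. The members and lists were chosen with earlier results of these data known.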

Additional observations from a re-analysis of the deposited data

How the results depend on the processing

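The calls depend on the scaling, and in some comparisons as much or more on the filter or the libraries fitted. With library totals in place of TMM, members higher and lower were 0 and 41 at hour 3 against hour 0, 5 and 1 at day 2 against hour 0, 24 higher at day 8 and 10 higher at day 23 against hour 0, 5 lower at day 2 against day 1, 56 higher at day 8 and 49 higher with 0 lower at day 23 against hour 3, 7 lower at day 23 against day 8, and 1 lower at day 1 against hour 0. Among the members reported by name, the log2 fold changes at hour 3 against hour 0 that turned negative with library totals were those of Cox4i1 (-0.14), Cox5a (-0.0278), Cox5b (-0.52), Cox6a1 (-0.23), Cox6b1 (-0.48), Cox7c (-0.0684), Cox8a (-0.00806), Ndufa10 (-0.37), Ndufa13 (-0.43), Ndufb6 (-0.24), Ndufb9 (-0.59), Uqcrc1 (-0.67), Uqcrc2 (-0.56), Uqcrfs1 (-0.00899), Uqcrh (-0.43) and Uqcrq (-0.33), and Uqcrc2 turned positive (0.16) at day 23 against hour 3. No other setting turned a called member round.

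For hour 3 against hour 0, members lower were 5 with DESeq2 size factors, 5 with at least 5 CPM in 3 libraries, 5 with the 2 groups alone, 5 without day 2, 4 with DESeq2, 1 with no filter and 1 with limma-voom, and members higher were 10 without day 2. For day 1 against hour 0, members lower were 0 with no filter, 0 with the 2 groups alone and 0 with the 9 libraries of the set. For day 2 against hour 0, members higher and lower were 1 and 3 with DESeq2 size factors, 2 and 4 with DESeq2 and 1 and 4 with limma-voom, and 13 were lower with the 2 groups alone. For day 23 against hour 0, 10 were higher with the 2 groups alone. For day 2 against day 1, members lower were 7 with DESeq2 size factors, 8 with DESeq2, 36 with no filter, 34 with the 2 groups alone and 33 with the 9 libraries of the set. For day 8 against hour 3, 36 were higher with the 2 groups alone. For day 23 against day 8, members lower were 7 with no filter, 9 with DESeq2 and 2 with the 2 groups alone. Shares of all genes stand above for some of these fits only. Where none stands, the count shows how calls moved with the setting and cannot be set against a background. The cause of these shifts was not tested.

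Leaving out 1 replicate at a time gave 10 to 15 members higher and 1 to 3 lower at hour 3, 6 to 10 higher and 0 to 3 lower at day 1, 3 to 8 lower at day 2, 26 to 41 higher at day 8 and 14 to 37 higher at day 23, all against hour 0. It gave 6 to 24 lower at day 2 against day 1, 15 to 22 higher at day 8 against hour 3, 7 to 22 higher and 2 to 4 lower at day 23 against hour 3, and 0 to 4 higher and 2 to 10 lower at day 23 against day 8. Shares of all genes stand above for some of these fits only, so the ranges show spread and not distance from a background. No paired analysis was possible because each replicate number, 1 to 18, occurs once. Counts of 4398234 to 6313619 per library at day 2, and in 2 of the day 23 libraries about as few, limit the precision for members of low level such as Cox4i2 and Cox6b2. P-values rest on 3 libraries per group.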
